A study of Mus musculus with 12 samples.

Results

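The genes described are 9 components of transforming growth factor beta (TGF-β) signalling in the heart: the ligands Tgfb1, Tgfb2 and Tgfb3, the latent TGF-β binding protein Ltbp2, the receptors Tgfbr1 and Tgfbr2, and the intracellular transducers Smad2, Smad3 and Smad7. They were chosen by gene symbol, and each of the 9 symbols matched 1 of the 26921 gene rows of the count table. RNA-seq was performed on left ventricular tissue of mice at 16 weeks of age, with 6 libraries labelled WT and 6 labelled cmGch1 KO, each from a single animal. WT mice carried homozygous floxed Gch1 alleles without Cre recombinase. cmGch1 KO mice were littermates with the same floxed alleles and, in addition, 1 copy of a Cre transgene driven by the α-myosin heavy chain promoter, which is active in cardiomyocytes, so that other cells of the ventricle keep Gch1. No library came from a mouse with Cre and unfloxed Gch1, so Cre itself and the loss of Gch1 cannot be told apart here. The question was whether deletion in cardiomyocytes of Gch1, which encodes the enzyme required for tetrahydrobiopterin synthesis, goes with altered expression of this pathway.

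TGF-β ligands are secreted as latent complexes and must be released before they bind their receptors. The ligand first engages the type II receptor (Tgfbr2), which phosphorylates the type I receptor (Tgfbr1), which in turn phosphorylates the receptor SMADs Smad2 and Smad3. These join the common partner Smad4 and act in the nucleus, whereas Smad7 is induced by the pathway and feeds back to restrain the receptor. In the heart the pathway is best known for driving fibroblasts to make matrix and contractile proteins after injury or overload.

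Expression is given as cpm, the usual abbreviation for counts scaled to a common library total, with totals adjusted by edgeR's TMM factors. Library totals ranged from 19921398 to 37917806 counts, and the lowest count of any of the 9 genes in any library was 63, for Ltbp2. Gch1 ranged from 9.32 to 12.2 cpm in WT and from 3.94 to 6.35 cpm in cmGch1 KO libraries, without overlap (log2 fold change -0.96, adjusted p = 6.88e-04). The 8 cardiomyocyte markers examined summed to between 51600 and 60500 cpm in each library, against 16.7 to 318 cpm for 5 atrial markers. cmGch1 KO replicates 2 and 3 stood apart from the other 10 libraries: Xist, the RNA that coats the inactive X, reached 87.1 and 99.6 cpm and 4 Y-linked genes were at 0 counts, while elsewhere Xist was at most 0.235 cpm. Mitochondrial genes also held less of these 2 libraries (14.9% and 16.1%) than of the others (18.3% to 22.9%). Because both belong to 1 genotype, values without them are given for the 9 genes, the called pathway genes and the gene lists as a whole, and for Emilin1, Bgn, Fstl1 and Fstl3. Genes were called at a false discovery rate (FDR) under 0.05 over all 11225 tested genes, with p-values from the quasi-likelihood test of edgeR and the Benjamini-Hochberg correction.

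Of the 9 genes, 1 passed this test: Tgfb2, which was higher in cmGch1 KO hearts. Over all tested genes, 1.12% were called in either direction and 0.677% were called higher. Because the difference lay with a single ligand, the sequences just before the transcription starts of Tgfb2 and of Tgfb1, a ligand that did not pass, are printed for comparison (Tgfb3 did not pass either and had no entry). Each is the 250 bases before the RefSeq start, 5′ to 3′ on the strand of the gene, on build GRCm38.p6. Tgfb2 lies on the minus strand of chromosome 1 (window chr1:186705990-186706239) and Tgfb1 on the plus strand of chromosome 7 (window chr7:25686752-25687001). Capitals mark matches, on either strand, to 6 short motifs. These were the E-box CACGTG, the core of the cAMP response element written TGACG, the TATA sequence TATAAA, the element CAGAC that SMAD proteins can bind, the CCAAT box, and the GC box written GGGCGG.
Tgfb2: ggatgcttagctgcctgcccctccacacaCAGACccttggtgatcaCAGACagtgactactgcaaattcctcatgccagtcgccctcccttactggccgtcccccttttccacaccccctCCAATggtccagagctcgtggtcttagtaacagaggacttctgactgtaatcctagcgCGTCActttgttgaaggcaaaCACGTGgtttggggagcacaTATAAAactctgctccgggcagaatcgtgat
Tgfb1: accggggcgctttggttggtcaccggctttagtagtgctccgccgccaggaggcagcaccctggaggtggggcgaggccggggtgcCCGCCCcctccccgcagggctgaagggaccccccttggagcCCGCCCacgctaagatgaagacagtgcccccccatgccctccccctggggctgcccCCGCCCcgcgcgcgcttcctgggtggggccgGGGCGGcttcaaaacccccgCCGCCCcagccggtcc
The Tgfb2 window held 1 E-box, 51 to 46 bases before the start, 1 response element core at 72 to 68 bases, 1 TATA match at 31 to 26 bases, 2 matches to the CAGAC element, 1 CCAAT box and no GC box. In the Tgfb1 window the matches were 5 GC boxes and none of the other letters. GC content was 53.6% for Tgfb2 and 75.2% for Tgfb1. Among 32851 windows of the same length, 6.02% held an E-box, 17.8% the response element core, 12.4% the TATA sequence, 42.2% the CAGAC element, 33.8% the CCAAT box and 32.7% the GC box. No match overlapped another in either printed window. The letters GGAATG, bound by TEAD factors and named M-CAT, and the AP-1 letters TGANTCA were searched as well and matched in neither, against 12.6% and 6.75% of windows. RefSeq windows were found for 6 of the 9 genes (not for Tgfb3, Smad2 and Smad7), and of these 6 Tgfb2 alone held an E-box, a response element core or a TATA match. A match describes the letters and is not evidence that a factor binds there.

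Tgfb2 (ENSMUSG00000039239) spans 186622792 to 186705989 of chromosome 1 on GRCm38. Its ligand is known for its part in heart development, where it acts in the valves and outflow tract. In WT libraries 1 to 6 it was at 6.51, 9.64, 5.69, 6.79, 8.10 and 7.52 cpm. In cmGch1 KO libraries 1 to 6 it was at 12.6, 13.4, 12.2, 12.6, 14.4 and 8.26 cpm. All cmGch1 KO libraries other than replicate 6 lay above every WT library, and replicate 6 lay below WT replicate 2, so the genotypes overlapped. WT hearts averaged 7.37 ± 1.38 cpm and cmGch1 KO hearts 12.2 ± 2.10 cpm (mean ± SD of 6 libraries each). On the log2 scale the fitted difference was 0.73 (standard error 0.15, 95% interval 0.42 to 1.04, with an adjusted p of 0.0241 in edgeR), which is a 1.66-fold higher level. An exact permutation test of the cpm, two-sided and over the libraries, gave p = 0.00433, where the smallest p possible is 0.00216. By unadjusted p, Tgfb2 ranked 86 among the 11225 tested genes.

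**Figure D1:**
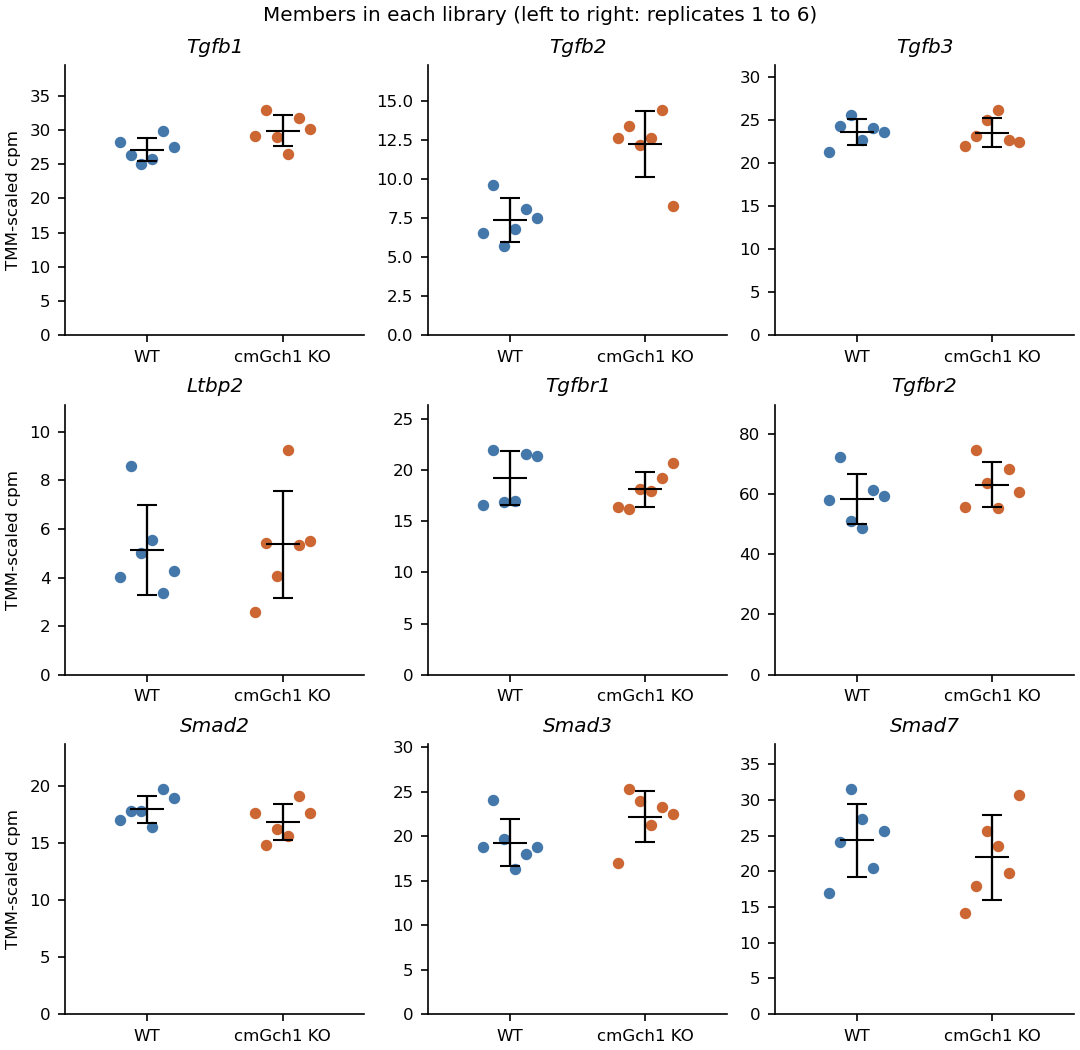
TMM-scaled cpm of the 9 genes in each library, with WT in blue and cmGch1 KO in orange; points run from replicate 1 to replicate 6, and the bars give the mean and SD of 6 libraries. The genotypes overlap in each panel, and for Tgfb2 the overlap comes from cmGch1 KO replicate 6 at 8.26 cpm and WT replicate 2 at 9.64 cpm.

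The size of the Tgfb2 difference was steady, but its call was not. Leaving out each library in turn gave log2 fold changes of 0.66 to 0.82, and the adjusted p lay between 0.0064, without cmGch1 KO replicate 6, and 0.0683, without cmGch1 KO replicate 2 (edgeR). The call was kept in 4 of these 12 fits, those without WT replicate 2, WT replicate 6, cmGch1 KO replicate 1 or cmGch1 KO replicate 6. Without both cmGch1 KO replicates 2 and 3 the difference was 0.70 (standard error 0.17, adjusted p = 0.144), and it was 0.69 (standard error 0.16, adjusted p = 0.10, edgeR) once a covariate of sex-linked transcripts was added. Among the 4 cmGch1 KO libraries that remain without replicates 2 and 3, only replicate 6 fell within the WT range. The other 8 genes were then at -0.13 to 0.15, with adjusted p of at least 0.904 in edgeR.

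Markers of other cell types were set beside this difference, since fewer cells of a type and less RNA per cell cannot be told apart in bulk tissue. Of 9 tested macrophage markers 8 had a positive log2 fold change and 7 of these an unadjusted p under 0.05 (7.01% of all tested genes were higher at that level), while none had an FDR under 0.05. The 10 listed macrophage markers summed to 266 to 410 cpm in WT and 346 to 481 cpm in cmGch1 KO libraries, and none was at 0 in any library. The cardiomyocyte markers summed to 57200 to 60500 cpm in WT and 51600 to 56400 cpm in cmGch1 KO libraries, without overlap, and 7 of 8 had a negative log2 fold change, with none called. The sums for 10 cardiac fibroblast markers were 1490 to 2050 cpm and 1680 to 2150 cpm, and those for 10 pericyte and smooth muscle markers were 1210 to 1380 cpm and 1280 to 1370 cpm. For 9 endothelial markers the sums were 1210 to 1390 cpm and 1160 to 1310 cpm. Positive log2 fold changes were seen for 8 of 10 fibroblast, 3 of 10 pericyte and smooth muscle and 5 of 9 endothelial markers. Their medians were 0.13, -0.06 and 0.04, and of these markers only Acta2 was called. The fibroblast median was 0.05 without cmGch1 KO replicates 2 and 3. Over all 11225 tested genes, 5241 log2 fold changes were positive and 5984 negative. All 5 erythroid markers had negative log2 fold changes, from -0.43 to -0.30 with a median of -0.39, and 0 of them had an unadjusted p under 0.05, with sums of 393 to 1150 cpm in WT against 431 to 926 cpm in cmGch1 KO libraries. Without cmGch1 KO replicates 2 and 3, the median of the erythroid markers was -0.33 and that of the macrophage markers 0.23, where 9 of 9 macrophage markers were positive and 3 had an unadjusted p under 0.05. The cardiomyocyte marker sums of the remaining cmGch1 KO libraries still lay between 51600 and 56400 cpm. The part of any of these cell types in the Tgfb2 difference was not tested.

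Tgfb1, the ligand most studied in fibrosis, was at 28.2, 26.4, 25.1, 25.8, 29.8 and 27.5 cpm in WT and at 29.2, 32.9, 29.0, 26.5, 31.7 and 30.2 cpm in cmGch1 KO libraries 1 to 6. The highest 3 values were in cmGch1 KO libraries and the lowest 3 in WT libraries, with the rest interleaved. Its log2 fold change was 0.14 (95% interval -0.01 to 0.29, adjusted p = 0.489 from edgeR's test). Its exact permutation p, before any adjustment, was 0.039. Tgfb3, the third ligand, was at 21.3, 24.3, 25.6, 22.6, 24.0 and 23.6 cpm in WT and at 21.9, 23.1, 25.0, 26.1, 22.6 and 22.4 cpm in cmGch1 KO libraries. The 2 sets of Tgfb3 values covered almost the same range. Its means were 23.6 ± 1.48 and 23.5 ± 1.65 cpm (SD, n = 6 each), and the 95% interval of the log2 fold change, -0.15 to 0.15, leaves out a difference of the size seen for Tgfb2. The sign of the Tgfb3 estimate turned with scaling by library size alone (0.07).

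To set the ligands beside each other, cpm were divided by the merged exon length of each gene in kilobases. On this scale the sum of the 3 ligands was 13.6 ± 0.58 cpm per kb in WT and 15.0 ± 0.617 cpm per kb in cmGch1 KO hearts (SD, n = 6 each). Tgfb3 held the largest share in each library, from 48.4% to 55.9% in WT against 43.2% to 50.9% in cmGch1 KO, followed by Tgfb1 at 34.7% to 43.0% over all 12 libraries. The share of Tgfb2 was 8.64%, 11.8%, 7.27%, 9.04%, 9.7% and 9.45% in WT and 15.1%, 14.8%, 13.8%, 14.4%, 16.1% and 10.2% in cmGch1 KO libraries 1 to 6. Tgfb2 was thus the smallest of the ligand transcripts in all 12 hearts. Its mean share was 9.32% ± 1.49 in WT and 14.0% ± 2.05 in cmGch1 KO (SD, n = 6 each). These shares were not tested, because they restate the values of the 9 genes.

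Ltbp2 encodes a large extracellular protein of the latent TGF-β binding family that binds fibrillin and, unlike its relatives, does not hold latent TGF-β. It was at 4.02, 8.59, 5.02, 5.53, 3.37 and 4.27 cpm in WT and at 2.59, 5.44, 4.06, 9.26, 5.33 and 5.49 cpm in cmGch1 KO libraries. One library of each genotype, WT replicate 2 and cmGch1 KO replicate 4, was far above the rest of its group. The estimate of 0.07 on the log2 scale had a 95% interval from -0.52 to 0.65 (adjusted p = 0.969 from edgeR's test), the widest of the 9. Ltbp2 was the most variable of the 9 genes, with a coefficient of variation of 36.2% in WT and 41.4% in cmGch1 KO hearts, the 98.6 and 98.5 percentiles of all tested genes. Without cmGch1 KO replicate 4 its log2 fold change was -0.17, and without WT replicate 5 it was -0.03.

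Tgfbr2, the ligand-binding type II receptor, was at 58.1, 72.3, 51.0, 48.8, 61.3 and 59.2 cpm in WT and at 55.7, 74.7, 63.8, 55.4, 68.3 and 60.5 cpm in cmGch1 KO libraries. Tgfbr1, the type I receptor that carries the signal to the SMADs, was at 16.6, 22.0, 16.9, 17.0, 21.6 and 21.4 cpm in WT and at 16.4, 16.2, 18.2, 18.0, 19.2 and 20.7 cpm in cmGch1 KO libraries. For each receptor the genotypes overlapped over most of their range. Log2 fold changes were 0.11 for Tgfbr2 (95% interval -0.11 to 0.33, adjusted p = 0.79) and -0.08 for Tgfbr1 (95% interval -0.29 to 0.12, adjusted p = 0.84, edgeR's test for each). Per kb of exon, Tgfbr1 made up 26.4% to 31.2% of the receptor pair in WT and 21.4% to 30.0% in cmGch1 KO libraries, so that Tgfbr2 was the more abundant receptor transcript in each heart.

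Smad2 was at 17.0, 17.8, 17.8, 16.4, 19.7 and 18.9 cpm in WT and at 17.6, 14.8, 16.2, 15.6, 19.1 and 17.6 cpm in cmGch1 KO libraries. Smad3, the receptor SMAD that binds DNA directly, was at 18.8, 24.1, 19.7, 16.3, 18.0 and 18.8 cpm in WT and at 17.0, 25.3, 24.0, 21.3, 23.3 and 22.5 cpm in cmGch1 KO libraries. Apart from replicate 1, the cmGch1 KO libraries held more Smad3 than every WT library other than WT replicate 2. Genotypes differed on the log2 scale by 0.21 for Smad3 (95% interval -0.03 to 0.44, adjusted p = 0.513) and -0.09 for Smad2 (95% interval -0.26 to 0.08, adjusted p = 0.752, edgeR's test for each).

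Smad7, the inhibitory SMAD whose transcription follows pathway activity, was at 17.0, 24.1, 31.5, 27.4, 20.5 and 25.6 cpm in WT and at 14.2, 17.9, 25.7, 23.6, 19.7 and 30.7 cpm in cmGch1 KO libraries. The values were spread over nearly the same range in each genotype. Its estimate was -0.15 on the log2 scale (95% interval -0.53 to 0.24, adjusted p = 0.855 from edgeR's test). Its coefficient of variation was 21.1% in WT and 27.0% in cmGch1 KO hearts, against 6.36% and 7.51% for Tgfb1. Of the 9 genes only Ltbp2 varied more in each genotype.

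**Figure D2:**
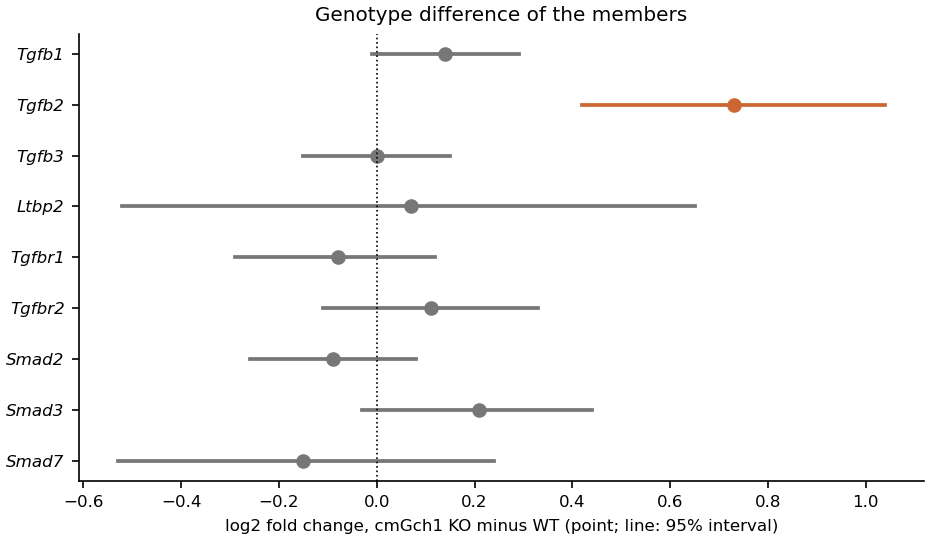
Difference of the 9 genes between cmGch1 KO and WT as log2 fold change (x axis, points) with 95% intervals (lines) from edgeR's quasi-likelihood fit; orange marks FDR under 0.05. The interval of Tgfb2, 0.42 to 1.04, lies above 0, and each of the other 8 intervals includes 0.

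In WT hearts the order of the genes per kb of exon was Tgfbr2 (7.14 ± 1.02 cpm per kb, SD, n = 6), Tgfb3 (6.97 ± 0.437), Smad7 (5.39 ± 1.13), Tgfb1 (5.38 ± 0.342), Smad3 (3.47 ± 0.477), Tgfbr1 (2.95 ± 0.404), Smad2 (2.04 ± 0.136), Tgfb2 (1.27 ± 0.239) and Ltbp2 (0.627 ± 0.227). Tgfbr2 and Tgfb3 did not differ beyond their spread, nor did Smad7 and Tgfb1, each pair keeping its order in 4 of 6 WT libraries. Smad3 was above Tgfbr1 in 5 of 6 WT libraries, with overlapping ranges. The WT ranges did not overlap between Tgfb1 and Smad3, between Tgfbr1 and Smad2, or between Smad2 and Tgfb2. In cmGch1 KO hearts Tgfb2, at 2.11 ± 0.363 cpm per kb, came before Smad2, at 1.92 ± 0.178 cpm per kb. Smad2 was above Tgfb2 in 6 of 6 WT libraries and in 1 of 6 cmGch1 KO libraries. Tgfb1 and Smad7 also changed places, at 5.93 ± 0.445 and 4.86 ± 1.31 cpm per kb in cmGch1 KO hearts. Against all tested genes in WT, these levels ran from the 3.22 percentile for Ltbp2 to the 59.9 percentile for Tgfbr2, with Tgfb2 at the 12.5 percentile.

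**Figure D3:**
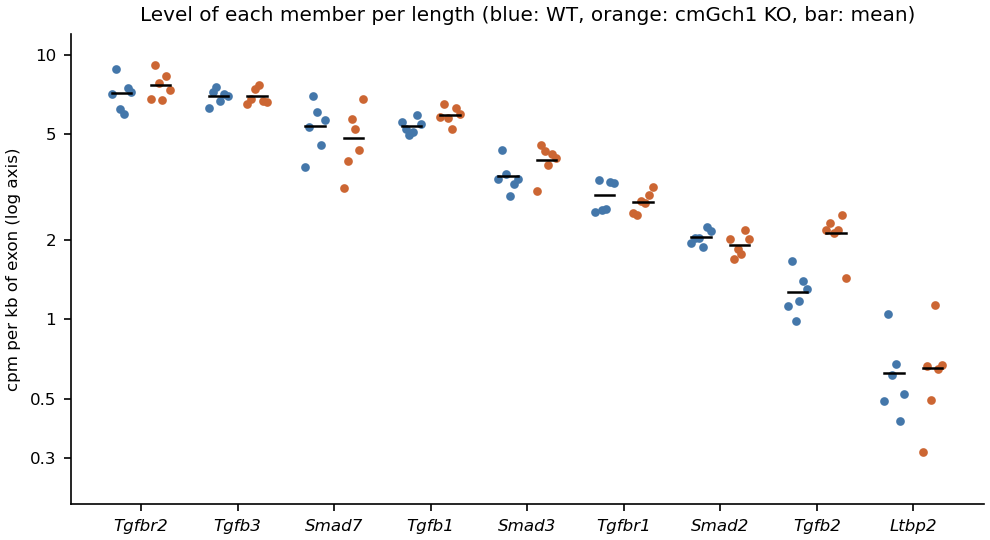
Level of each gene in cpm per kb of merged exon, on a log axis, ordered by the WT mean; each point is 1 library, blue for WT and orange for cmGch1 KO, and bars are group means. Tgfb2 rises from a WT mean of 1.27 to 2.11 cpm per kb and passes Smad2, and Ltbp2 is the lowest gene in each genotype.

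Where the genes lie bears on how their reads could be counted. Tgfb1 (chromosome 7), Tgfbr1 (chromosome 4), Tgfbr2 and Smad3 (chromosome 9) and Smad2 and Smad7 (chromosome 18) overlapped no other annotated gene. Tgfb2 overlaps the antisense transcript Gm29491 and the small nucleolar RNA Gm26169, each with at most 2 counts in any library. Ltbp2 overlaps the antisense transcript D030025P21Rik, also with at most 2 counts. Tgfb3 overlaps Ttll5, a protein-coding gene on the opposite strand with up to 573 counts, and 2 annotated transcripts that have no row in the count table. The libraries kept strand, but the strand setting of the counting is not given in the sources used here, so the reads of Tgfb3 and Ttll5 may not be fully separated.

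The remaining pathway was taken as 7 lists, chosen with earlier results of these data known. Among them, 4 genes were called, each higher in cmGch1 KO hearts. These were Ccn2, Ankrd1 and Acta2 of the genes that TGF-β induces, and Gdf15 of the wider ligand family. Gdf15 was over the minimum of 3 cpm in 0 WT and 6 cmGch1 KO libraries, so only cmGch1 KO brought it into the test. The median log2 fold change was 0.07 over the 9 genes and -0.009 over all tested genes. Nothing in the lists was called lower. Over all tested genes 0.677% were called higher and 0.445% lower. Without cmGch1 KO replicates 2 and 3 the calls in the lists were again these 4 genes, 1 in the ligand family and 3 among the induced genes, against 0.177% of all tested genes called higher. The medians of the 7 lists then ran from -0.12 to 0.17, where all tested genes had a median of 0.002.

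Of 18 genes for the latent complex and its activation, 16 were tested, none was called, and 4 had an unadjusted p under 0.05, all with positive values. At that level 7.01% of all tested genes were higher and 4.51% lower. The median log2 fold change of this list was 0.15, and 0.23 with scaling by library size alone. Values were 0.35 for Mmp14, a membrane-bound matrix protease (adjusted p = 0.105 from edgeR's test), 0.43 for Emilin1, an elastic fibre protein that restrains processing of the TGF-β precursor (adjusted p = 0.219), and 0.14 for Itgb5, a subunit of an activating integrin (adjusted p = 0.223). Itgb5 was at 111 to 118 cpm in WT and 120 to 131 cpm in cmGch1 KO libraries, without overlap, a separation seen in 1.87% of tested genes. Emilin1 reached 66.2 cpm in cmGch1 KO replicate 2, with 35.2 to 39.0 cpm in the other 5 cmGch1 KO libraries, against 25.9 to 37.5 cpm in WT, and its value was 0.25 without cmGch1 KO replicates 2 and 3. The latent binding proteins Ltbp1, Ltbp3 and Ltbp4 had log2 fold changes of -0.09, 0.13 and -0.05, with unadjusted p of at least 0.203.

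For the other type I, II and III receptors, 9 of 12 genes were tested, and none was called or reached an unadjusted p under 0.05. Their median log2 fold change was 0.00, and 0.08 with library size scaling. The smallest p-values were those of Acvr1b, an activin receptor (-0.09, adjusted p = 0.763 from edgeR's test), Bambi, a decoy receptor (-0.15, adjusted p = 0.772), and Acvr1, a bone morphogenetic protein receptor (0.05, adjusted p = 0.908). All 5 other SMADs were tested and none was called. Their median was -0.09, and -0.01 with library size scaling. Smad4, the common partner of the receptor SMADs, was at 49.1 to 58.7 cpm in WT and 44.2 to 50.4 cpm in cmGch1 KO libraries (log2 fold change -0.13, adjusted p = 0.457). Values were -0.23 for Smad9 (adjusted p = 0.729) and -0.08 for Smad1 (adjusted p = 0.83), which both serve bone morphogenetic protein receptors. After TMM adjustment Smad9 was at 2.57 to 4.78 cpm in WT and 1.77 to 3.44 cpm in cmGch1 KO libraries. Before that adjustment, the scale of the minimum, it was over 3 cpm in 2 WT and 4 cmGch1 KO libraries.

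Among SMAD regulators and partners, 26 of 27 genes were tested, none was called, and 1 had an unadjusted p under 0.05, with a negative value. Of all tested genes, 4.51% were lower at that p. The median of -0.02 became 0.05 with library size scaling. The gene with the smallest p was Mapk14, the p38 kinase that TGF-β also activates without SMADs (log2 fold change -0.20, adjusted p = 0.129 from edgeR's test). Its values were 70.3 to 79.1 cpm in WT and 63.4 to 70.2 cpm in cmGch1 KO libraries, without overlap. Such a separation was seen in 1.87% of tested genes. Mapk14 was followed by Tab2, an adaptor of the kinase TAK1 (-0.12, adjusted p = 0.515), and Ppm1a, a phosphatase of SMADs (-0.15, adjusted p = 0.52).

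Of 30 genes known to be induced by TGF-β, 26 were tested, and 3 were called higher and 0 lower. The 6 with an unadjusted p under 0.05 all had positive values. Of all tested genes, 0.677% were called higher and 7.01% were higher at that p. At the same p, 4 listed genes were higher and 1 lower without cmGch1 KO replicates 2 and 3. The shares of all tested genes were then 4.49% and 2.63%. The list was drawn up with earlier results of these data known, so its counts beside these shares are not an independent comparison. Ccn2, a matricellular protein long used as a readout of the pathway, was at 56.6, 57.7, 52.7, 60.1, 57.5 and 68.0 cpm in WT and at 134, 110, 79.8, 111, 109 and 106 cpm in cmGch1 KO libraries. The lowest cmGch1 KO value lay above the highest WT value. Ccn2 rose by 0.88 on the log2 scale (standard error 0.10, with an adjusted p of 6.88e-04 in edgeR), and it was called in 12 of 12 fits that left out 1 library and without cmGch1 KO replicates 2 and 3 (0.97, adjusted p = 4.97e-04).

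Ankrd1, a stress-responsive nuclear and sarcomeric protein made chiefly by cardiomyocytes, rose from 915 to 1580 cpm in WT to 2100 to 3130 cpm in cmGch1 KO libraries (1.13 on the log2 scale with a standard error of 0.14, adjusted p = 9.8e-04). Acta2, smooth muscle actin and the mark of activated fibroblasts, rose from 113 to 145 cpm to 163 to 243 cpm (0.66 with a standard error of 0.11, adjusted p = 0.00672 in edgeR). Both were called in 12 of 12 fits that left out 1 library, and neither overlapped between genotypes. Without cmGch1 KO replicates 2 and 3 the values were 1.17 for Ankrd1 (adjusted p = 0.00569) and 0.52 for Acta2 (adjusted p = 0.0392 in edgeR). Acta2 is also a smooth muscle marker. Tagln, which is in both of these lists too, had a log2 fold change of -0.40 (adjusted p = 0.491 in edgeR). That was the lowest value among the tested TGF-β-induced genes.

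Other genes of the same list did not pass. Col3a1, a fibrillar collagen, had a log2 fold change of 0.44 (adjusted p = 0.126 from edgeR's test) and Postn, a matricellular protein of activated fibroblasts, 0.40 (adjusted p = 0.192). Fn1, fibronectin, was at 0.24 (adjusted p = 0.39 in edgeR). Col1a1, Col1a2, Col5a1, Eln, Lox, Tgfbi, Comp and Cilp, further matrix genes of the list, had log2 fold changes of -0.00 to 0.15. Their unadjusted p was at least 0.291 in edgeR. Skil, Junb, Id1 and Pmepa1 of the list were at -0.20, -0.15, -0.22 and 0.13, with unadjusted p of at least 0.103 in edgeR. The median over the 26 genes was 0.05, and 0.13 with library size scaling, against -0.009 for all tested genes. Col1a1 of this list is also among the fibroblast markers, and Acta2 and Tagln are among the pericyte and smooth muscle markers. Skil, Smad6, Pmepa1 and Ltbp1 are also in other pathway lists.

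**Figure D4:**
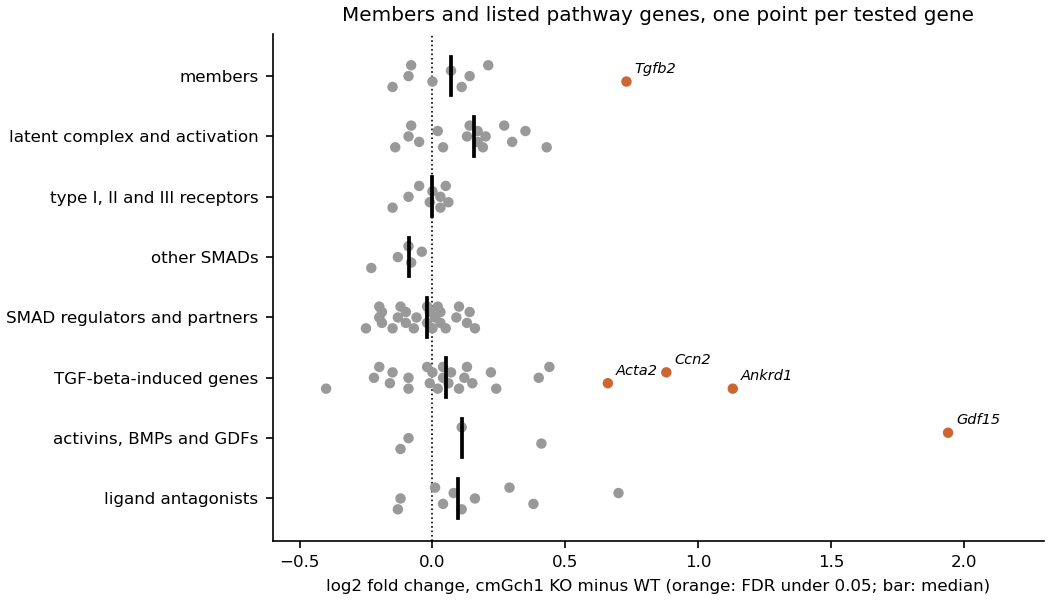
Genotype difference, cmGch1 KO minus WT on the log2 scale (x axis), for each tested gene of the 9 (row "members") and of the 7 pathway lists; orange points have FDR under 0.05 and are named, and bars are medians. Called points are Tgfb2 at 0.73, Acta2 at 0.66, Ccn2 at 0.88, Ankrd1 at 1.13 and Gdf15 at 1.94. Gdf15 was over the 3 cpm minimum in cmGch1 KO libraries only. The list medians run from -0.09 to 0.15.

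Of 21 activins, bone morphogenetic proteins and growth differentiation factors, 5 were tested. Gdf15, a circulating stress hormone of this family that signals through a receptor of its own, was at 1.08 to 2.68 cpm in WT and 5.51 to 11.2 cpm in cmGch1 KO libraries (1.94 on the log2 scale with a standard error of 0.25, adjusted p = 0.00149 in edgeR). Gdf15 was over the minimum of 3 cpm in 0 WT and 6 cmGch1 KO libraries, so it entered the test only through the genotype in which it was high. Its estimate was 2.04 without cmGch1 KO replicates 2 and 3 and 1.03 in the deposited log2 values with limma (adjusted p = 0.00789 and 0.00108). The highest value was in cmGch1 KO replicate 6, the library with the lowest Tgfb2 of its group. Inhbb, an activin subunit, was at 4.35 to 5.02 cpm in WT and 4.84 to 7.46 cpm in cmGch1 KO libraries (0.41, adjusted p = 0.119), and Bmp6 was at 0.11 (adjusted p = 0.73).

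Of 18 antagonists and binding partners of these ligands, 10 were tested and none was called. At an unadjusted p under 0.05, 7.01% of all tested genes were higher. In this list 3 genes reached that p, all with positive values. These were Bgn, a proteoglycan that binds TGF-β (0.29, adjusted p = 0.134 from edgeR's test), Fstl1 (0.38, adjusted p = 0.236) and Fstl3, which binds activin (0.70, adjusted p = 0.24). Fstl3 was at 7.58 and 5.71 cpm in cmGch1 KO replicates 2 and 3 and at 2.51 to 3.88 cpm in the other 4. It passed the minimum, taken before TMM adjustment, in 1 WT and 5 cmGch1 KO libraries. Fstl1 was at 177 and 147 cpm in cmGch1 KO replicates 2 and 3 and at 99.5 to 121 cpm in the other 4. Without cmGch1 KO replicates 2 and 3 the values were 0.24 for Bgn, 0.17 for Fstl1 and 0.25 for Fstl3, with unadjusted p of 0.0287, 0.0907 and 0.118 in edgeR. The list's median was 0.10, and 0.18 with library size scaling.

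**Figure D5:**
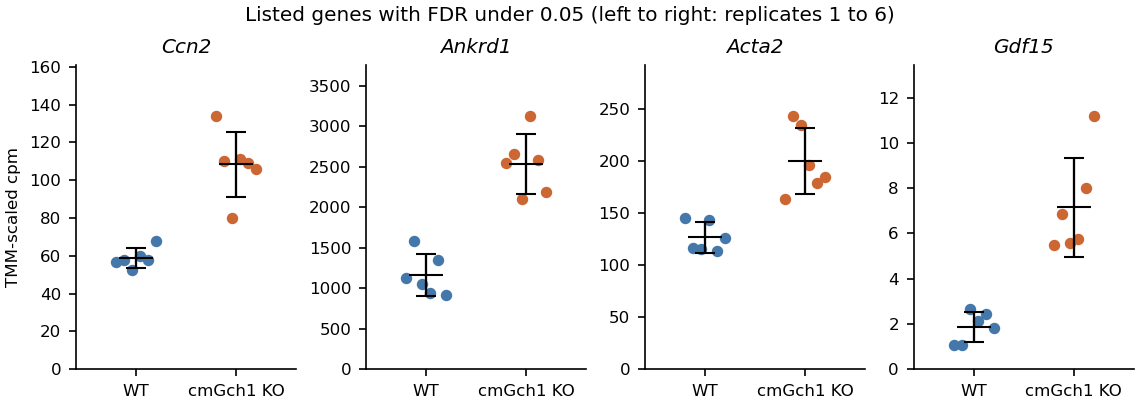
TMM-scaled cpm of the 4 listed pathway genes with FDR under 0.05, WT in blue and cmGch1 KO in orange, replicates 1 to 6 from left to right, with mean and SD of 6 libraries. In each panel every cmGch1 KO library lies above every WT library. For Ccn2 the ranges are 52.7 to 68.0 cpm in WT and 79.8 to 134 cpm in cmGch1 KO. Gdf15 was over the 3 cpm minimum in cmGch1 KO libraries only.

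For each of the 9 genes, the tested genes whose log2 cpm followed it most closely over the 12 libraries were listed by Pearson's r, as a description, since the libraries share genotype, depth and tissue makeup and each was picked as the best of all other tested genes. Tgfb2 was followed by Nckap1l, a cytoskeletal regulator of blood cells (r = 0.92, Spearman's rho 0.90), Mybpc2, a myosin binding protein of fast skeletal muscle (r = 0.92, rho 0.88), and Scd2, a fatty acid desaturase (r = 0.92, rho 0.87). Nckap1l and Mybpc2 were themselves called higher (log2 fold changes 0.48 and 0.80, adjusted p = 0.0262 and 0.00665 from edgeR's test). After the genotype means were removed, r with Tgfb2 was 0.73, 0.73 and 0.75, and without the 2 libraries farthest from the median of Tgfb2 it was 0.92, 0.90 and 0.86.

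Tgfb1 was followed by Tgfb1i1, also named Hic-5 and known as a TGF-β-induced focal adhesion protein (r = 0.91, rho 0.94, and 0.85 within genotypes), by Rcan1, an inhibitor of calcineurin (r = 0.90), and by P2rx5 (r = 0.87). Tgfbr2 was followed by Galnt4, by Cspg4, a pericyte proteoglycan, and by Adamts15, each with r = 0.92. For Smad7 the closest gene was Prkd2 (r = 0.93), for Smad3 Zbtb42 (r = 0.92), for Smad2 Chmp4c (r = 0.92), for Tgfbr1 Samd4 (r = 0.96), for Tgfb3 Fli1 (r = 0.82) and for Ltbp2 Epb41l5 (r = 0.89). None of the 9 was among the 3 closest genes of another.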

How the data were processed

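RNA-seq of left ventricle was analysed for 6 WT and 6 cmGch1 KO mice, grouped by the genotype label. According to the methods, the authors made dUTP-stranded paired-end libraries from total RNA and counted reads using Picard and featureCounts after alignment in HISAT2. The submitters' processing notes name HISAT2, SAMtools and GRCm38. The deposited counts are raw whole numbers per Ensembl gene, and in the second deposited table are normalized log2 values of the authors, made by a tool not given in the sources used here. Of 26921 identifiers, 98.7% had an entry in GENCODE M21 (GRCm38), the source of symbols, coordinates and merged exon lengths. Promoter sequences are from RefSeq, GRCm38.p6.

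Genes above 3 cpm before TMM adjustment in 6 or more libraries (in the smaller group where libraries were left out) were tested. The test was run in edgeR 4.0.16 (R 4.3.3) with TMM factors and a quasi-likelihood fit on genotype, at an FDR under 0.05. Standard errors are the fitted coefficient over the root of F. log2 cpm used a prior count of 2. Simulated counts for this comparison covered 11219 genes, all drawn with the same dispersion. In them 90.0% of genes changed 1.5-fold and 100% of those changed 2-fold were recovered, with 10 false calls. Real genes vary to different degrees, so these shares do not give the recovery of any single gene. Over 30 pairs of libraries of 1 genotype, chi-square per degree of freedom was 12.5 to 78.9, so none was a copy. The limit that a count of 0 allows was at most 0.14 cpm in any library, for counting error only. The reads carry no molecular identifiers.

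The genes and lists were chosen with earlier results of these data known. Besides the 9 genes, the text names called genes and the 3 smallest p-values of each list and the 3 closest genes by Pearson's r; Ltbp1, Ltbp3, Ltbp4, Tagln, Col3a1, Postn, Fn1, Skil, Junb, Id1, Pmepa1, Timp1, Inhba, Gdf6, Gdf10, Gdf11, Bmp2, Bmp7 and Ttll5 were named after their values were seen. The same holds for Col1a1, Col1a2, Col5a1, Eln, Lox, Tgfbi, Comp and Cilp. Lists of lymphocyte, platelet and epicardial markers had 0, 1 and 1 tested genes, with none called. Alternatives were DESeq2 size factors, library size alone, the DESeq2 1.42.0 Wald test, no filter, filterByExpr, limma 3.58.1 on the deposited log2 values, a replicate block, a sex-linked covariate (Xist relative to 4 Y-linked genes, log2 cpm) and libraries left out.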

Additional observations from a re-analysis of the deposited data

Results flagged for a closer look

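Of 76 groups of 6 libraries examined, 5 held a library farther from the rest than Dixon's 95% limit allows, and chance alone gives about 1 in 20. Tgfb2 was lowest in cmGch1 KO replicate 6, at 8.26 cpm, where the other 5 cmGch1 KO libraries lay between 12.2 and 14.4 cpm; without it the log2 fold change was 0.82 (adjusted p = 0.0064, edgeR). Emilin1 was highest in cmGch1 KO replicate 2, at 66.2 cpm, with the next library at 39.0 cpm. Acvr1b was lowest in cmGch1 KO replicate 1, at 20.9 cpm, with the next at 23.7 cpm. Smad4 was highest in WT replicate 6, at 58.7 cpm, with the next at 52.2 cpm. Smad9 was highest in WT replicate 2, at 4.78 cpm, with the next at 3.24 cpm.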

How the results depend on the processing

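Tgfb2 was the 1 gene of the 9 called, and was called in 7 of 9 alternatives other than single left-out libraries, with log2 fold changes of 0.51 (deposited values with limma) to 0.80 (library size alone). With the sex-linked covariate and without both cmGch1 KO replicates 2 and 3, 0 of the 9 were called (Tgfb2 at 0.69 and 0.70); the cause was not tested. Leaving out 1 library gave 0 to 1 called genes of the 9. The other 8 genes were past the threshold in 0 of 168 alternative fits (smallest adjusted p 0.165) and kept their direction in 159. Tgfb3 turned sign with library size alone (0.0741) and in 6 of 12 fits that left out 1 library (-0.0354 to 0.0207), and Ltbp2 in 2 of 12 (-0.17 to 0.28). Over all genes, 50 were called lower and 76 higher. DESeq2's Wald test gave 155 and 218, library size alone 36 and 116, the sex-linked covariate 24 and 40, and leaving out both cmGch1 KO replicates 2 and 3 18 and 20. Single left-out libraries gave 31 to 98 lower and 43 to 118 higher, and moved a count by over 1.5 times without WT replicate 3 (31 and 45), WT replicate 5 (31 and 43), cmGch1 KO replicate 1 (98 and 118) and cmGch1 KO replicate 3 (36 and 47). The replicate numbers do not pair animals in the labels. Libraries of the same number correlated in their deviations from the group means with r from -0.128 to 0.676, and 3 of 6 correlated best with their own number. The replicate block gave 76 lower and 112 higher genes and 0.73 for Tgfb2 (adjusted p = 0.0222, edgeR). Depth left at least 63 counts for each of the 9 genes in every library, and the fewest were for Ltbp2.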

Other observations

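Listed pathway genes under the cpm minimum were examined in the fits with no filter and with filterByExpr, and none passed an FDR of 0.05 there. The smallest p among them was that of Timp1, an inhibitor of matrix proteases (log2 fold change 1.68, standard error 0.42, adjusted p = 0.0921 from edgeR's test without a filter). Its mean was 1.69 cpm in WT against 5.63 cpm in cmGch1 KO hearts, with at most 359 counts in a library. Fewer than 6 libraries were over 3 cpm for Timp1, so that mean does not hold for every cmGch1 KO library. Of the ligands under the minimum, 6 had over 50 counts in some library, and none was called. Inhba, Gdf6, Gdf11 and Bmp2 averaged 1.15, 0.675, 2.53 and 1.71 cpm in WT hearts, with 1.67, 1.1, 2.90 and 2.10 cpm in cmGch1 KO hearts. Bmp7 and Gdf10 averaged 1.96 and 0.947 cpm in WT hearts, with 1.83 and 0.802 cpm in cmGch1 KO hearts.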
